A study of Mus musculus with 3 samples.

Results

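The TGF-beta ligands, receptors and Smads described here are 9 genes chosen by name: the ligands Tgfb1, Tgfb2 and Tgfb3, the receptors Tgfbr1, Tgfbr2 and Tgfbr3, and the signal transducers Smad3, Smad4 and Smad7. All 9 were found among the 22757 named genes of the table, and 8 of the 9 reached a mean of 1 FPKM (fragments per kilobase of transcript, scaled to sequencing depth) over the libraries. Tgfb2 was the exception. The data are RNA-seq profiles of 3 pancreatic tumour lines of the mouse, Mus musculus, known as the HI-Panc model. They stand for a localized (HI-Panc-L), an invasive (HI-Panc-I) and a metastatic (HI-Panc-M) stage. Per the labels, the tumours behind all 3 lines grew in p16-/- transgenic animals, and the lines arose spontaneously, without an immortalization step, in 1 genetic lineage. The culture medium was DMEM supplied with 10% bovine serum. The treatment text is shared by the 3 samples and describes cobalt chloride at 100 ng/ml for 24 h for hypoxic models, without saying whether these libraries came from treated cells. The labels give no mouse age and do not say whether a line is 1 clone.

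TGF-beta ligands are secreted in a latent form, held by a propeptide and by latent TGF-beta binding proteins of the matrix, and act only once released. The active dimer brings together the type II receptor Tgfbr2 and the type I receptor Tgfbr1, helped by the co-receptor Tgfbr3 (betaglycan), and the type I receptor phosphorylates Smad2 and Smad3, which enter the nucleus with Smad4. In normal and early neoplastic pancreatic epithelium the pathway restrains growth, and in advanced carcinoma it is known for its links with epithelial-mesenchymal transition and matrix production.

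Each stage had 1 library, so the values below could not be checked against replicates and carry no p-values; a count of genes compares these libraries, not the stages in general. Estimated depths were 45900000, 41400000 and 43400000 fragments in the localized, invasive and metastatic libraries, and the intervals given below cover counting error only. A gene was called higher or lower where its log2(FPKM + 1) differed by at least 1, which is 2-fold for well expressed genes. Before any result, the libraries differed in markers of cell identity. The 12 ductal epithelial markers summed to 1254, 6900.5 and 7377 FPKM in the localized, invasive and metastatic libraries, with 7, 11 and 11 of them at 1 FPKM or more. The 12 fibroblast markers summed to 668, 94.9 and 15.1 FPKM, with 10, 5 and 5 of them at 1 FPKM or more. The localized line, whose tissue label reads body wall, thus had the lowest ductal and the highest fibroblast marker levels, although it is labelled as the earliest stage. The invasive line is labelled pancreatic tissue and the metastatic line liver. Whether the tissue labels of the localized and invasive lines stand with the right lines could not be settled from the labels, and the libraries are named here by their stage label. Of the 8 hepatocyte markers, only the transcription factor Hnf4a reached 1 FPKM in any library, and Serpina1a, Cps1, Tat and Ahsg were listed at 0 in all 3. The 8 hepatocyte markers summed to 12.0, 24.1 and 34.2 FPKM in the localized, invasive and metastatic libraries. The 8 acinar markers summed to 7.61, 1.25 and 0.490 FPKM, mostly from the elastase gene Cela1 (7.24, 1.13 and 0.323 FPKM), which was called lower in the invasive and the metastatic library than in the localized one, while Cpa1, Ptf1a, Amy2a5 and Pnlip were listed at 0 in all 3. Endothelial markers summed to 0.383, 0.633 and 0.303 FPKM over 6 genes. The 6 leukocyte markers counted summed to 4.88, 11.2 and 10.3 FPKM, nearly all from the lysosomal protein gene Cd68, with Cd3e listed at 0. The 8 muscle markers summed to 16.7, 4.85 and 0.583 FPKM, mostly from Acta2, with Ckm listed at 0. The 5 mesothelial markers summed to 287, 2262 and 2775 FPKM, mostly from Krt19 and Msln, with Wt1 listed at 0. Krt19, at 181, 1970 and 2365 FPKM, is also on the ductal list, so these sums are not separate.

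Tgfbr3 was the only member called in any pair of libraries, and it was lower in the invasive and metastatic libraries than in the localized one. Of the other 8 members, Tgfb2, at about 1 FPKM, was more than 2-fold lower in FPKM in the metastatic than in the invasive library without reaching the call, and the other 7 lay within 2-fold in FPKM in every pair. For invasive against localized, 0 of 9 members were called higher and 1 lower, where 8.78% of the 11404 genes counted were higher and 6.07% lower. For metastatic against localized, 0 of 9 were higher and 1 lower, beside 9.08% and 7.29% of genes. For metastatic against invasive, 0 of 9 were called in either direction, beside 1.33% higher and 1.67% lower. The median difference over the 9 members was 0.30, 0.03 and -0.29 on the log2 scale in these 3 comparisons. Over the 8 members with a mean of at least 1 FPKM, as required of the genes counted, it was 0.15, 0.07 and -0.19. Over all genes counted it was -0.001, 0.004 and -0.009. A looser call of 1.5-fold gave 1 member higher (Smad3) and 1 lower (Tgfbr3) in invasive against localized, beside 15.1% and 11.9% of genes. In metastatic against localized it gave 0 higher and 3 lower (Tgfbr1, Tgfbr3 and Smad7), beside 15.9% and 14.1%. In metastatic against invasive it gave 1 higher (Tgfbr3) and 1 lower (Smad7), beside 3.51% and 5.35%. Of the 9 members, 0 passed 1.5-fold the same way in each of the 2 steps along the stages, whereas 3.02% of genes counted did. The 2 comparisons with the localized library share that library and are not independent.

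**Figure D1:**
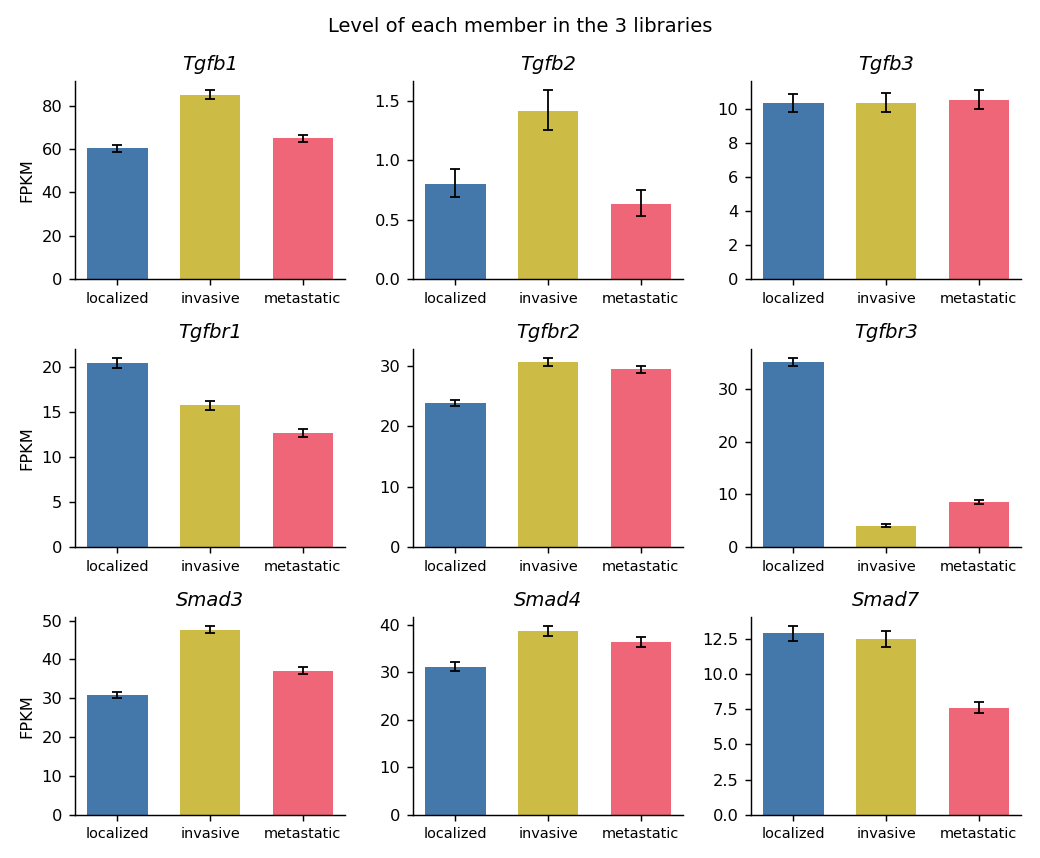
Level of each of the 9 members in FPKM (y axis, from 0, own scale in each panel) in the localized, invasive and metastatic libraries, 1 library each, with bars for the level and error bars for the 95% counting interval. Tgfbr3 has 35.2, 4.08 and 8.54 FPKM, while Tgfb3 has nearly level bars at 10.3, 10.4 and 10.5 FPKM.

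Among the ligands, Tgfb1 was by far the most abundant and Tgfb2 close to the lower end of the genes counted. Tgfb1 (GRCm38 chromosome 7, 25687002 to 25705077, plus strand), the main TGF-beta isoform of most epithelial tumours, had 60.3, 85.0 and 64.9 FPKM in the localized, invasive and metastatic libraries. The invasive library was the high one, and the localized and metastatic libraries were close to each other. The ratio was 1.41 for invasive over localized (95% counting interval 1.36 to 1.46), 1.08 for metastatic over localized (1.04 to 1.12) and 0.764 for metastatic over invasive (0.737 to 0.791). Within its own library the gene stood above 87.1%, 90.8% and 87.6% of genes counted. Tgfb3 (chromosome 12, 86056745 to 86079041, minus strand), the isoform known for its part in palate closure in the mouse, had 10.3, 10.4 and 10.5 FPKM. Its ratio was 1.00 for invasive over localized (0.932 to 1.08) and 1.02 for metastatic over localized (0.949 to 1.10), so the 3 libraries could not be told apart within counting error. Tgfb2 (chromosome 1, 186622792 to 186705989, minus strand), which binds the type II receptor well only with the help of betaglycan, had 0.803, 1.41 and 0.632 FPKM, from an estimated 182, 288 and 136 fragments. The invasive library was again the highest, with a ratio of 1.76 over localized (1.45 to 2.12) on the FPKM scale. For metastatic over invasive the FPKM ratio was 0.447 (0.363 to 0.552), but the difference in log2(FPKM + 1) was -0.56, since the pseudocount of 1 is as large as the level itself; with a pseudocount of 0.1 it was -1.05 and passed 2-fold.

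Tgfb1 made up 84.4%, 87.8% and 85.3% of the summed FPKM of the 3 ligands in the localized, invasive and metastatic libraries, Tgfb3 14.5%, 10.7% and 13.9%, and Tgfb2 1.12%, 1.46% and 0.830%. The sum itself was 71.4, 96.8 and 76.1 FPKM, so its higher value in the invasive library came mostly from Tgfb1. FPKM is a level per transcript length, which is what allows these genes to be set beside each other.

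The upstream sequences of the most and the least abundant ligand are shown because their levels lay so far apart in all 3 libraries. Promoter entries in the RefSeq table (GRCm38.p6) matched 5 of the 9 members: Tgfb1, Tgfb2, Tgfbr1, Tgfbr2 and Smad3; Tgfb3, Tgfbr3, Smad4 and Smad7 had no entry. The 250 bases upstream of each annotated start are printed 5′ to 3′ on the gene's strand, with capitals for CAGAC, a core Smad-binding motif, or its reverse complement GTCTG. The Tgfb1 window lies at chr7:25686752-25687001 (plus strand), and the Tgfb2 window at chr1:186705990-186706239 (minus strand).
Tgfb1: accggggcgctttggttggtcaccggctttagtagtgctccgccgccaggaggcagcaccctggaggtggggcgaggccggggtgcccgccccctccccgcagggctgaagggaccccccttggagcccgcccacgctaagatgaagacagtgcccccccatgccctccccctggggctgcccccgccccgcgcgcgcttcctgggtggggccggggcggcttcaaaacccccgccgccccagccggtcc
Tgfb2: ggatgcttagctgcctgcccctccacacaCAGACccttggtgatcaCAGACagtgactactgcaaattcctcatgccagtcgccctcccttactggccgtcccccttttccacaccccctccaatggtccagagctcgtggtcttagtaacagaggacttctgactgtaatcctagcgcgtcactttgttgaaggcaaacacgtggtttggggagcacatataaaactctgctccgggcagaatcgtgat
The Tgfb1 window had a GC content of 75.2% and no match, and the Tgfb2 window had 53.6% and 2 matches that do not overlap, starting 221 and 204 bases before the start site. Over all 32851 windows of the table, 42.2% held at least 1 match on either strand and the mean GC content was 53.2%. Of the 6 windows of the 5 members, 3 held a match (Tgfb2, Tgfbr2 and 1 of the 2 Tgfbr1 windows).

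Among the receptors, the co-receptor and the signalling chains went apart. Tgfbr3 (ENSMUSG00000029287.14, chromosome 5, 107106570 to 107289629, minus strand), which encodes betaglycan, had 35.2, 4.08 and 8.54 FPKM in the localized, invasive and metastatic libraries, from an estimated 9521, 996 and 2191 fragments. The localized library was far above the others, and the invasive library was the lowest. The invasive over localized ratio was 0.116 (0.109 to 0.124) and the metastatic over localized ratio 0.243 (0.232 to 0.254), which are log2(FPKM + 1) differences of -2.83 and -1.92. Of all genes counted, 0.991% lay at least as far down in invasive against localized. In metastatic against localized the share was 2.999%. Between the closer pair the metastatic library was higher, with an FPKM ratio of 2.09 over the invasive library (1.94 to 2.26) and a log2 difference of 0.91, which did not reach the call and which 1.61% of genes counted matched or passed in that direction. With a pseudocount of 0.1 this last difference was 1.05. In bulk libraries fewer cells of a type and less RNA per cell cannot be told apart. The sum of the 12 fibroblast markers, given above, was likewise highest in the localized library, but was lower in the metastatic than in the invasive library, where Tgfbr3 was not. In the invasive library most of that sum was Col1a1 (46.3 FPKM) and Col1a2 (33.4 FPKM). Pdgfra (42.7, 1.09 and 1.97 FPKM) and Pdgfrb (8.37, 0.838 and 1.84 FPKM), also on that list, had the same order of libraries as Tgfbr3. The other fibroblast markers past the filter, Dcn, Col1a1, Col1a2, Col3a1, Prrx1 and Cxcl12, were lower in the metastatic than in the invasive library. Dcn and Cxcl12 were below 0.1 FPKM in both of these libraries. Of the 8 fibroblast markers past the filter, 0 were called higher and 3 lower in metastatic against invasive, beside 1.33% and 1.67% of genes counted. The part of the fibroblast markers in the Tgfbr3 result was not tested.

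Tgfbr2 (chromosome 9, 116084293 to 116175360, minus strand), the ligand-binding type II receptor kinase, had 23.8, 30.7 and 29.4 FPKM in the localized, invasive and metastatic libraries. The invasive and metastatic libraries lay close together above the localized one, at ratios of 1.29 (1.25 to 1.32) and 1.23 (1.20 to 1.27). Tgfbr1 (chromosome 4, 47353222 to 47414931, plus strand), the type I receptor kinase that phosphorylates the Smads, had 20.4, 15.7 and 12.6 FPKM. It was lower in each later stage as labelled, with ratios of 0.771 for invasive over localized (0.739 to 0.804) and 0.804 for metastatic over invasive (0.766 to 0.844), steps below 1.5-fold. End to end the metastatic over localized ratio was 0.619 (0.592 to 0.648).

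The balance between receptors differed between libraries more than either signalling receptor did. The Tgfbr3 level divided by the Tgfbr2 level was 1.48, 0.133 and 0.290 in the localized, invasive and metastatic libraries. The Tgfbr1 level divided by the Tgfbr2 level was 0.856, 0.513 and 0.429. In the localized library betaglycan was thus the most abundant of the 3 receptors, and in the invasive and metastatic libraries the least abundant.

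**Figure D2:**
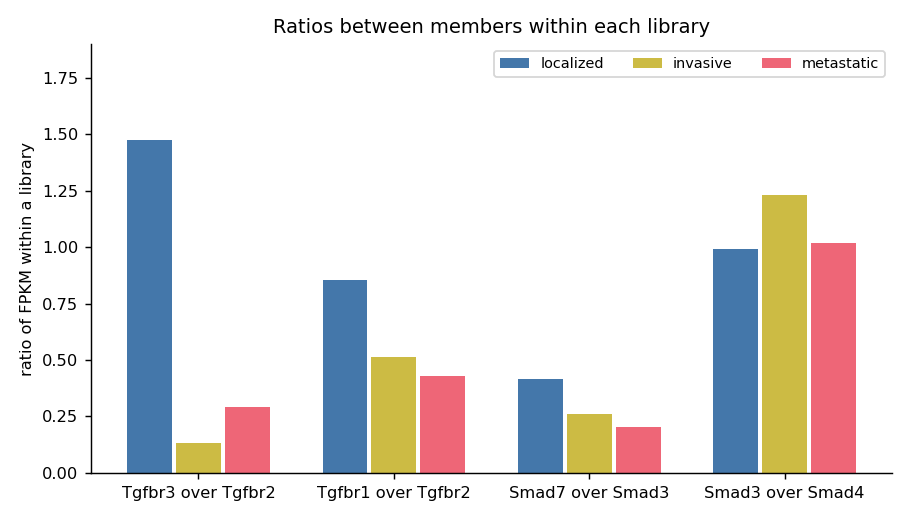
Ratios of FPKM between pairs of members within each library (y axis, linear from 0), with bars for the localized, invasive and metastatic library, 1 library each. Tgfbr3 over Tgfbr2 stands at 1.48, 0.133 and 0.290, and Smad7 over Smad3 at 0.417, 0.262 and 0.205.

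Among the Smads of the 9 members, Smad3 and Smad4 were somewhat higher in the invasive library. The inhibitory Smad7 was lower in the metastatic library, and all differences were within 2-fold. In invasive against localized, 25.7% of genes counted differed at least as far as Smad3 in either direction, and 50.8% as far as Smad4. For Smad7 the share was 24.9% in metastatic against localized and 7.11% in metastatic against invasive. Smad3 (chromosome 9, 63646767 to 63757994, minus strand), the receptor-activated Smad that binds DNA directly, had 30.9, 47.6 and 37.1 FPKM in the localized, invasive and metastatic libraries. Its invasive over localized ratio was 1.54 (1.497 to 1.59), and its log2(FPKM + 1) difference of 0.61 was the largest of the 8 members other than Tgfbr3 in that comparison. Smad4, the shared partner of the receptor-activated Smads, whose human counterpart is often lost in pancreatic carcinoma, had 31.2, 38.7 and 36.4 FPKM and so was expressed in all 3 lines. Smad4 and Smad7 both lie on chromosome 18. Smad7, which blocks the type I receptor and is itself induced by the pathway as a feedback inhibitor, had 12.9, 12.5 and 7.60 FPKM. The metastatic library was the low one, with ratios of 0.590 over localized (0.552 to 0.631) and 0.609 over invasive (0.568 to 0.652), and the localized and invasive libraries were not distinguishable within counting error (invasive over localized 0.969, 0.914 to 1.03). The Smad7 level divided by the Smad3 level was 0.417, 0.262 and 0.205. Smad3 and Smad4 were close to equal in the localized library (ratio 0.990) and also in the metastatic one (1.02), where their counting intervals overlapped, and stood at 1.23 in the invasive library.

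**Figure D3:**
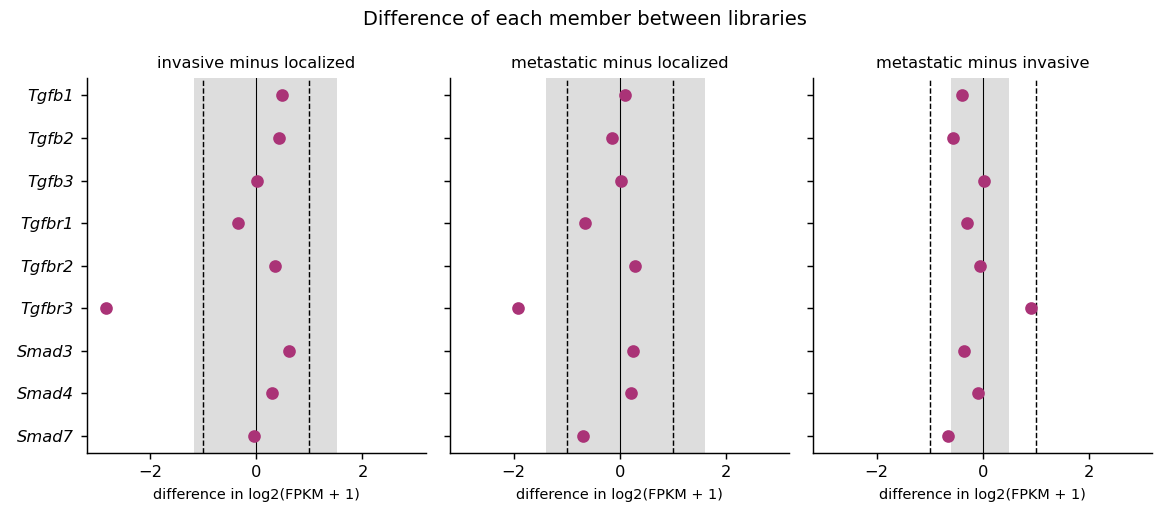
Difference in log2(FPKM + 1) of each member (x axis) for the 3 pairs of libraries, with the order of subtraction in each panel title; grey bands hold the central 90% of the 11404 genes counted and dashed lines mark the 2-fold call. Tgfbr3 lies at -2.83, -1.92 and 0.91, outside the band in each panel, and Smad7 at -0.65 lies just outside it in the last.

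By library of the highest level, Tgfb1, Tgfb2, Tgfbr2, Smad3 and Smad4 peaked in the invasive library, Tgfbr1, Tgfbr3 and Smad7 in the localized library, and Tgfb3 was nominally highest in the metastatic library. Tgfb1 ranked first in all 3 libraries and Tgfb2 last. Tgfbr3 ranked 2, 8 and 7 of 9 in the localized, invasive and metastatic libraries. No other member moved by more than 2 ranks. Over 3 libraries and 10792 other named genes, those whose centred log2(FPKM + 1) profile lay nearest to that of Tgfbr3 were Penk (distance 0.12), Cd34 (0.16) and Armcx2 (0.16). Cd34, a surface sialomucin, had 169, 20.6 and 46.3 FPKM in the localized, invasive and metastatic libraries. Penk, the enkephalin precursor, had 10.4, 0.492 and 1.68 FPKM, and Armcx2 had 18.3, 1.56 and 4.61 FPKM. With 3 points per gene many profiles are alike, and nearness is a description only.

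The other 5 Smads were all within 2-fold where they passed the filter (4 of 5). Smad2, the second receptor-activated Smad of the pathway, had 7.47, 7.69 and 7.19 FPKM in the localized, invasive and metastatic libraries, and Smad3 exceeded it by 4.13, 6.20 and 5.16 times. Smad6, an inhibitory Smad that acts mainly on the BMP arm, had 7.13, 13.7 and 9.89 FPKM, the invasive over localized ratio being 1.92 (1.77 to 2.09). The BMP-activated Smad1 had 20.03, 18.9 and 17.2 FPKM and Smad5 16.4, 11.0 and 9.68 FPKM. Smad9, below the filter, had 0.336, 0.163 and 1.38 FPKM. Of the 8 related receptors and co-receptors, 4 passed the filter and 1 was called: Cd109, a GPI-anchored co-receptor that dampens TGF-beta signalling, with 38.1, 11.1 and 5.54 FPKM. It was called lower in the invasive (ratio 0.291, 0.279 to 0.304) and metastatic (0.145, 0.137 to 0.154) libraries than in the localized one. Over all genes counted, 6.07% and 7.29% were called lower in these comparisons. The activin receptors Acvr1b (9.58, 11.3 and 13.0 FPKM) and Acvr2a (2.65, 3.59 and 3.75 FPKM) were within 2-fold. The co-receptor endoglin, Eng (1.14, 0.562 and 0.355 FPKM), and the decoy receptor Bambi (0.432, 1.10 and 0.591 FPKM) had means below 1 FPKM.

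Several genes that hold TGF-beta latent in the matrix or release it were lower in the invasive and metastatic libraries than in the localized one. Of 14 such genes, 10 passed the filter. In invasive against localized 1 was at least 2-fold higher and 4 lower (median difference -0.32), beside 8.78% and 6.07% of genes counted. In metastatic against localized 1 was higher and 5 lower (median -0.79), beside 9.08% and 7.29%. Over all genes counted the medians were -0.001 and 0.004 in these comparisons. Over all 14 genes, with no filter on low values, the median in metastatic against localized was -0.22. Emilin1, which restrains processing of the TGF-beta precursor, had 23.8, 0.583 and 0.140 FPKM in the localized, invasive and metastatic libraries. Thrombospondin 1, Thbs1, an activator of latent TGF-beta, had 26.2, 2.78 and 2.07 FPKM. Both were high in the localized library only. The microfibril protein fibrillin-1, Fbn1, had 15.3, 2.73 and 1.47 FPKM and the latent TGF-beta binding protein Ltbp4 42.8, 8.45 and 11.1 FPKM. Lrrc32, known as GARP, which displays latent TGF-beta on the cell surface, went the other way with 5.34, 26.3 and 19.0 FPKM. Its ratios over the localized library were 4.93 for invasive (4.61 to 5.27) and 3.55 for metastatic (3.32 to 3.80). Chosen after their values were seen, Ltbp1 had 61.0, 43.6 and 21.1 FPKM, Ltbp3 82.1, 120 and 106 FPKM, and the precursor protease Furin 39.8, 63.1 and 57.4 FPKM. For metastatic against invasive 1 of the 10 was called lower, Ltbp1, at a difference of -1.01, beside 1.67% of genes counted. Fbn1, Emilin1 and the Ltbp genes are made by fibroblasts in tissue. The fibroblast marker sums given above were lower in the invasive and metastatic libraries than in the localized one. Fbn1, Emilin1, Ltbp1 and Ltbp4 were lower there too, while Ltbp3 was higher. Ltbp2 was nearly level, with 44.4, 39.4 and 41.6 FPKM in the localized, invasive and metastatic libraries. The part of the fibroblast markers was not tested.

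Activin and nodal genes were mostly low. Of 13, 6 passed the filter, and Nodal, Mstn and Lefty2 were listed at 0 in all 3 libraries. Inhba, the activin A subunit, had 15.8, 4.89 and 3.37 FPKM in the localized, invasive and metastatic libraries and was called lower in the invasive and in the metastatic lines. The inhibin alpha subunit Inha had 5.16, 2.12 and 1.70 FPKM and was called lower in the metastatic library, at -1.19; in the invasive library its difference was -0.98. The activin antagonist follistatin, Fst, had 43.3, 70.5 and 59.6 FPKM, within 2-fold. Its relative Fstl3 had 3.18, 2.84 and 1.92 FPKM and the nodal antagonist Lefty1 2.96, 2.93 and 1.94 FPKM.

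All 13 Smad corepressors and other inhibitors passed the filter, and 0 of them were called in any pair. Of all genes counted, 8.78% were called higher and 6.07% lower in invasive against localized. The shares were 9.08% and 7.29% in metastatic against localized, and 1.33% and 1.67% in metastatic against invasive. The largest differences were in the ubiquitin ligase Smurf1 (22.6, 11.2 and 12.2 FPKM in the localized, invasive and metastatic libraries), the corepressor Tgif2 (3.13, 1.497 and 1.19 FPKM) and the receptor-binding immunophilin Fkbp1a (157, 294 and 250.4 FPKM). The feedback inhibitors Pmepa1 (20.05, 35.4 and 30.9 FPKM) and Skil (10.9, 16.9 and 14.6 FPKM) were highest in the invasive library. With a pseudocount of 0.1, 2 inhibitors passed 2-fold as lower in the invasive line and 1 in the metastatic line, against the localized one. Of 9 Smad cofactors, 8 passed the filter and 1 was called, the endocytic adaptor Dab2, with 14.1, 8.24 and 4.57 FPKM and a metastatic minus localized difference of -1.44. The acetyltransferase Ep300 had 10.3, 15.9 and 14.4 FPKM, the Smad anchor Zfyve9 6.50, 4.52 and 4.09 FPKM, the ubiquitin ligase Rnf111 11.5, 12.6 and 9.84 FPKM and the deubiquitinase Usp15 29.5, 27.9 and 34.5 FPKM.

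Genes known to be induced by TGF-beta did not move as 1 group. Of 25 counted, 22 passed the filter. In invasive against localized 3 were at least 2-fold higher and 8 lower (median -0.07), beside 8.78% and 6.07% of genes counted. In metastatic against localized 2 were higher and 10 lower (median -0.49), beside 9.08% and 7.29%. In metastatic against invasive 0 were higher and 5 lower (median -0.43), beside 1.33% and 1.67%. Over all genes counted the medians were -0.001, 0.004 and -0.009 in these comparisons. Over all 25, with no filter on low values, the median in metastatic against localized was -0.13. The 8 genes lower in both libraries against the localized one were Tgfbi, Snai1, Fn1, Col1a1, Col1a2, Acta2, Lox and Timp1, which include matrix genes and the epithelial-mesenchymal transition factor Snai1. In the localized, invasive and metastatic libraries, Col1a2 of type I collagen stood at 177, 33.4 and 0.083 FPKM and its partner chain Col1a1 at 162, 46.3 and 3.45 FPKM. The collagen crosslinker Lox had 74.0, 1.49 and 0.305 FPKM, Snai1 30.2, 1.26 and 0.605 FPKM and smooth muscle actin Acta2 16.3, 4.76 and 0.461 FPKM. In each of these 5 the localized library was the highest and the metastatic library the lowest. Col1a1 and Col1a2 are also on the fibroblast marker list and make up much of its sum in the localized and invasive libraries. That sum is therefore not separate from them, and the part of the fibroblast markers was not tested.

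Tgfbi, Ctgf, Pdgfb and Bhlhe40 were chosen after their values were seen. The secreted matrix protein Tgfbi had 77.3, 7.49 and 13.4 FPKM in the localized, invasive and metastatic libraries, the same order of libraries as Tgfbr3. Ctgf, a connective tissue growth factor, had 41.4, 91.9 and 37.8 FPKM. Its invasive over localized ratio was 2.22 (2.14 to 2.30) and its metastatic over invasive ratio 0.412 (0.396 to 0.428). Pdgfb, a growth factor, had 0.467, 4.14 and 2.005 FPKM. Ctgf and Pdgfb were highest in the invasive library, as were Tgfb1 and Smad3. Tgfbi was highest in the localized library, where Tgfb1 and Smad3 were lowest. The transcription factor Bhlhe40 had 17.6, 67.9 and 77.7 FPKM. Of the 22 genes, 11 peaked in the localized, 9 in the invasive and 2 in the metastatic line, and 9 were within 2-fold in all 3 pairs. The shares of all genes counted in these classes were not computed, so these counts describe the list only. Cdkn2b, a cell cycle inhibitor induced by TGF-beta in epithelial cells, was listed at 0 in all 3. Per the labels all 3 lines come from p16-/- animals, and whether that genotype bears on the Cdkn2b value was not tested. Many of these targets also respond to other signals.

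**Figure D4:**
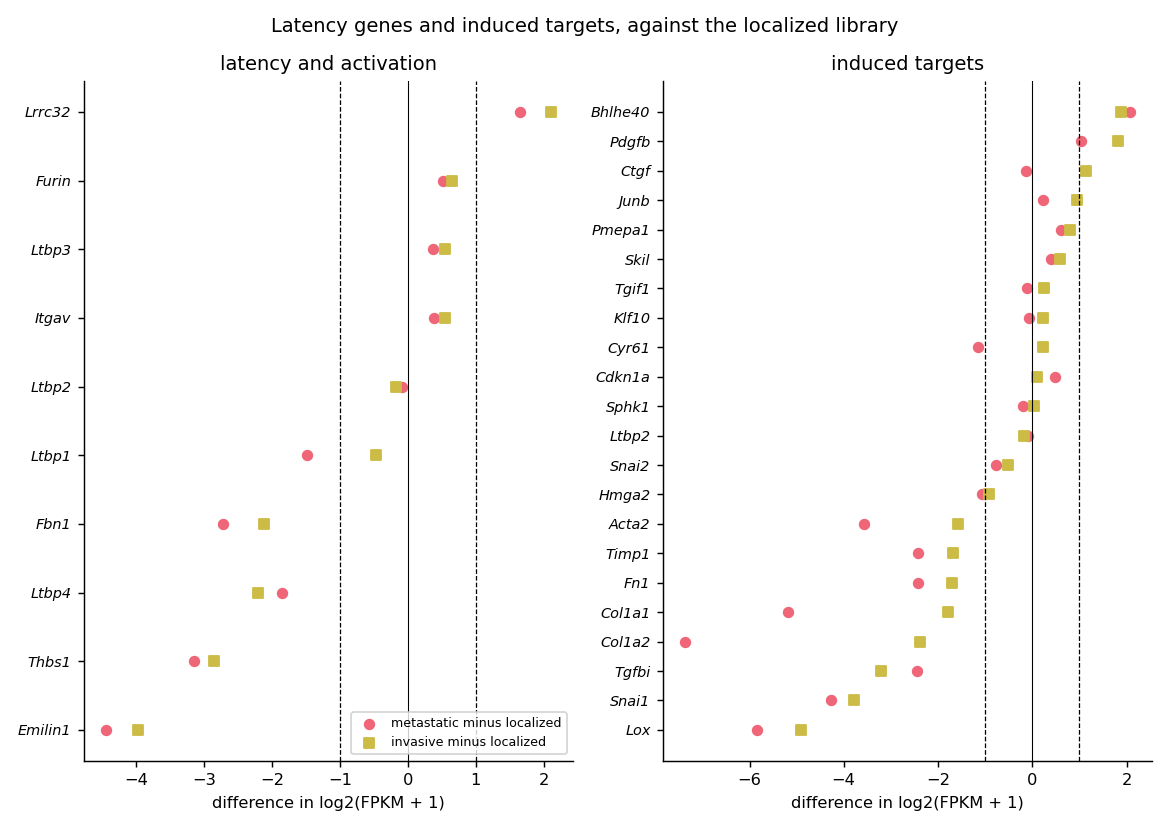
Difference in log2(FPKM + 1) against the localized library (x axis) for the 10 latency and activation genes and the 22 induced targets past the filter (rows), with circles for metastatic minus localized and squares for invasive minus localized; dashed lines mark the 2-fold call. Emilin1 lies at -4.44 and -3.97, Lrrc32 at 1.65 and 2.11, Col1a2 at -7.36 and -2.37 and Bhlhe40 at 2.08 and 1.89.

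The upstream windows of Tgfbi and Col1a2 are shown as examples of called targets that hold the Smad-binding core, drawn from 13 of the 25 induced targets with an entry in the table. The Tgfbi window lies at chr13:56609336-56609585 (plus strand) and the Col1a2 window at chr6:4505368-4505617 (plus strand), with capitals as above.
Tgfbi: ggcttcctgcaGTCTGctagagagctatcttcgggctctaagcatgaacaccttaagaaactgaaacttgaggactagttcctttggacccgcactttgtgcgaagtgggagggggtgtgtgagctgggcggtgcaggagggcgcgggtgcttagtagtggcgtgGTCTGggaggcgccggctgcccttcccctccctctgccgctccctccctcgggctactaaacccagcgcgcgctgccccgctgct
Col1a2: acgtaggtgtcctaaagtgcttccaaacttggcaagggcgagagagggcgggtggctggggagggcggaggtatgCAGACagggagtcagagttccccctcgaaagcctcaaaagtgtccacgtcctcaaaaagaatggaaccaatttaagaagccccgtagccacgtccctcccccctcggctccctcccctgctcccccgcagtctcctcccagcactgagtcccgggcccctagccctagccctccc
Tgfbi held 2 matches, starting 239 and 85 bases before the start site, and Col1a2 held 1, 175 bases before it. Over the 13 genes, 12 of 23 windows held a match, beside 42.2% of all windows. Snai1, Hmga2 and Timp1, which were lower in the metastatic than in the localized library, held none in their windows.

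Of 4 genes that TGF-beta is known to lower in epithelial cells, Id3, an inhibitor of differentiation factors, had 297, 70.2 and 37.0 FPKM in the localized, invasive and metastatic libraries and Id1 204, 172 and 89.8 FPKM. Id3 was called lower in the invasive (ratio 0.236, 0.228 to 0.246) and metastatic (0.124, 0.118 to 0.131) libraries than in the localized one, and Id1 in the metastatic library only (0.440, 0.423 to 0.457). Id2 (56.5, 86.2 and 66.3 FPKM) and Myc (59.1, 57.6 and 49.6 FPKM) were within 2-fold. Id genes also answer strongly to BMP signals.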

How the data were processed

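Per the labels' protocols, 1 ug of Trizol-extracted RNA per line went into TruSeq RNA libraries (Illumina). The authors deposited 1 table of FPKM values per gene with a column per library. Cufflinks 2.2.1, STAR 2.5.2a, FastQC 0.11.2 and the GRCm38 build stand in the submitters' processing notes, with no role or order; the annotation and strandedness are not given in the sources used here. Without strand, reads of a member and of genes on the other strand cannot be told apart; exons of Tgfb2 and Tgfb3 overlap annotated non-coding genes of the other strand, and an exon of Tgfbr3 overlaps an unconfirmed transcript annotation (Gm43422) of its own strand, none of which has an entry in the table. Some details of the genotype label and some genes of the lists are not reported here.

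The lowest value was exactly 0.1 in each column (6110, 6941 and 6764 entries in the localized, invasive and metastatic libraries), so 0.1 was subtracted. Of 22784 entries, 27 carried date numbers in place of symbols and were left out. Differences were taken in log2(FPKM + 1), a scale that understates the change of low genes. A mean of 1 FPKM over the 3 libraries was required for counts over all genes and lists, not for the 9 members, and 2 genes of short RNAs past it were left out. Cufflinks values are estimates. Among low single-transcript genes, 78.1% to 78.6% of values lay within 0.1 of a whole number of fragments, against 20% for evenly spread values, which gave the depth. Fragments per gene were estimated with the longest GENCODE M21 coding transcript, and ratio intervals are exact Clopper-Pearson intervals. The procedures were checked on simulated data (Python 3.11.15, pandas 2.3.3, scipy 1.17.1). The simulated data held counting error and set fold changes only, with 1 length per gene. Variation between libraries of a stage and genes with several transcripts were not covered.

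Members and the 8 pathway lists were chosen with earlier results of these data known. Named genes were all members and, from each list, up to 5 with the largest difference in any pair plus those listed at 0; the 3 genes nearest to a called member by Euclidean distance were also named. Alternatives were other pseudocounts, scalings, filters and folds.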

Additional observations from a re-analysis of the deposited data

How the results depend on the processing

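No paired analysis was possible because each stage has 1 library. The Tgfbr3 difference lay for invasive minus localized between -3.08 and -2.15 and for metastatic minus localized between -2.03 and -1.57 over the pseudocount, subtraction and scaling alternatives, past 2-fold in all of them. Against invasive, the metastatic difference ranged from 0.58 to 1.05. With a pseudocount of 0.1, 1 member (Tgfbr3) was called higher and 1 (Tgfb2) lower in metastatic against invasive. With a 1.5-fold call, the changes were 1 member higher for invasive against localized, 3 members lower in metastatic against localized, and 1 higher and 1 lower in metastatic against invasive. Of the 9 members, only Tgfb3, at differences near 0, took the other sign under a scaling. No scaling moved the median of all genes by more than 0.1.

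Counts over all genes followed the setting. With a pseudocount of 5 they were 575 higher and 359 lower for invasive against localized, 631 and 464 in metastatic against localized, and 62 and 67 for metastatic against invasive; with a 1.5-fold call they were 1727 and 1361, 1816 and 1607, and 400 and 610. With a pseudocount of 0.1, 373 were lower in metastatic against invasive. Of the induced targets, only 1 was higher in metastatic against localized with a pseudocount of 5. The single latency gene called lower in metastatic against invasive was not called with a pseudocount of 5 or after scaling each library to the same sum (0 genes). For activin and nodal genes, 2 were lower in invasive against localized with a pseudocount of 0.1 or either scaling. The scalings of the lists were chosen after seeing the data. Depth limits Tgfb2 most, at 136 estimated fragments in the metastatic library.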
